A study of Mus musculus with 7 samples.

Results

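The transcripts examined here belong to 10 genes of apical constriction and the actomyosin network, *Shroom3*, *Rhoa*, *Rock1*, *Rock2*, *Myh9*, *Myh10*, *Cfl1*, *Enah*, *Vasp* and *Marcks*. They were taken by gene symbol from a table of 25461 genes, and all 10 were present in it. The data are RNA-seq values of 7 whole mouse embryos at E11.5 on the B6C3F1 background, 3 SLMAP3 KO and 4 WT, without their tails, which had served for genotyping. KO embryos were homozygous for a *Slmap* allele from which exon 3 had been removed by Cre in floxed mice crossed to CMV-cre mice, and they came from crosses of heterozygous mice that no longer carried Cre. This deletion was designed against the long SLMAP3 isoform and leaves the shorter isoforms SLMAP1 and SLMAP2. Each embryo is a separate animal and gave 1 library. The sources do not say which embryos shared a litter.

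When a neural plate bends, its epithelial cells narrow at their apical side because a belt of actin filaments and non-muscle myosin II contracts there. SHROOM3 recruits the kinases ROCK1 and ROCK2 to apical junctions, RHOA switches these kinases on, and they phosphorylate the myosin light chain and, through LIM kinases, hold back cofilin. Cofilin severs actin filaments, ENAH and VASP lengthen them, and MARCKS ties them to the plasma membrane. Loss of Shroom3, Marcks, Cfl1 or of Enah together with a relative is known to leave the neural tube open in mice. By E11.5 the neural tube of a WT embryo has closed, so a WT embryo reports on these genes in all tissues and after closure. The authors described an open neural tube in some but not all SLMAP3-null embryos. The embryo labels do not say whether any of the KO embryos used here had one.

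The values are FPKM, fragments per kilobase of transcript scaled to depth, which the authors computed and deposited as 1 value per gene and embryo. Since FPKM are per length, levels can be set side by side between genes. The reads behind each gene were numerous: the authors' mean normalized count over the embryos ran from 2741 for *Shroom3* to 60252 for *Cfl1*, and counting error alone would amount to 1.91% and 0.407% of such counts. The targeted gene, *Slmap*, was at 16.01 to 19.6 FPKM in KO embryos against 22.8 to 31.2 FPKM in WT embryos, with a log2 fold change of -0.59 (adjusted p = 0.278, limma), and gene values do not tell its isoforms apart. In 3 embryos, the KO embryo KOAC10-5 and the WT embryos KOAC10-7 and KOAC10-2, 5 fetal liver markers summed to 4.15 to 9.80 FPKM, against 391 to 700.1 FPKM in the other 4, so results are also given for those 4 embryos alone. In bulk RNA of a whole embryo, fewer cells of a type and less RNA per cell cannot be told apart.

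The 10 transcripts spanned 2 orders of magnitude, and every one was detected in every embryo. *Cfl1* was the most abundant, between 793 and 962 FPKM, followed by *Marcks* between 194.7 and 230.3 FPKM and *Rhoa* between 151 and 167 FPKM. *Myh10* and *Enah* were next, at means of 103 and 99.8 FPKM over the 7 embryos. These neighbours overlapped, and *Myh10* was above *Enah* in 5 of 7 embryos. *Vasp* (mean 46.3 FPKM) was above *Myh9* (mean 41.3 FPKM) in each of the 7 embryos although their ranges overlapped. *Rock2*, *Rock1* and *Shroom3* were the lowest, at means of 20.4, 14.6 and 8.04 FPKM, with no overlap between neighbours. The apical scaffold was thus the rarest of the 10 transcripts, and the actin-severing protein the most common.

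**Figure D1:**
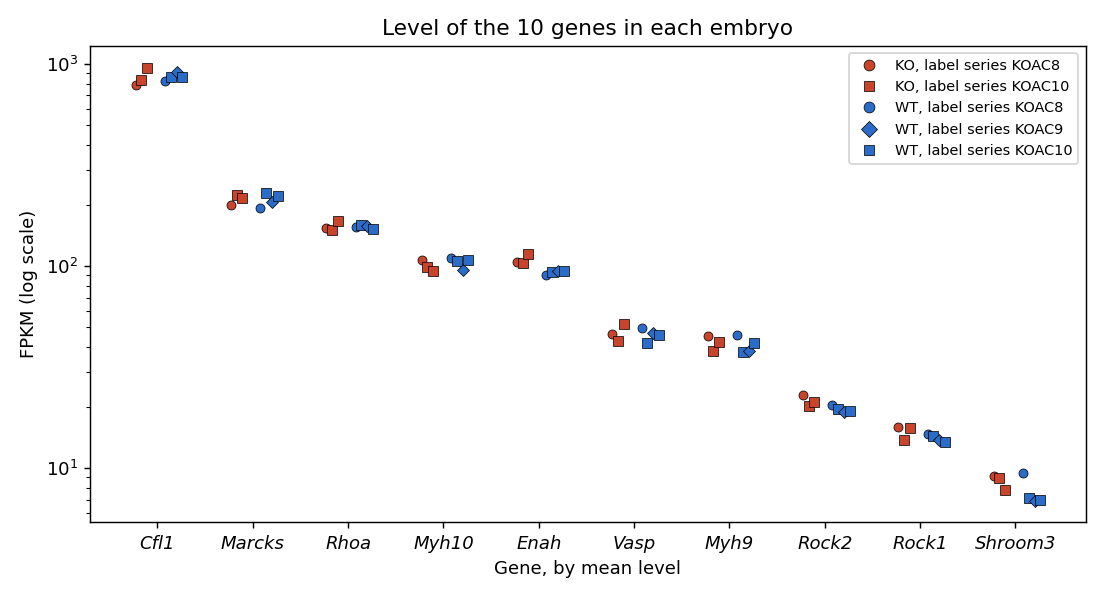
FPKM of the 10 genes in each of 7 embryos on a log axis, ordered by mean level, with KO embryos in red and WT embryos in blue and the shape giving the series in the embryo label. The genes differ from each other far more than the genotypes do, from 6.92 FPKM for Shroom3 to 962 FPKM for Cfl1.

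KO and WT embryos were compared gene by gene on the log2(FPKM + 1) scale over the 16095 genes whose mean reached 1 FPKM, among them all 10. The adjusted p controls the false discovery rate over all 16095 by the Benjamini-Hochberg method. With limma, none of the 10 (0) passed an adjusted p of 0.05, where 6 of all genes tested, or 0.0373%, did. At an unadjusted p under 0.05 there was 1 of the 10, *Enah*, while 11.5% of all genes tested passed that threshold. *Enah* was also the only 1 of the 10 whose KO and WT values did not overlap, against 11.6% of all genes tested and 5.61% with KO embryos higher. A count of 1 in 10 is near these shares. The median log2 fold change of the 10 genes was 0.03, beside 0.01 over all genes tested, and its median size regardless of sign was 0.05, beside 0.09. The fold change was positive for 8 genes and negative for 2, where 53.1% of all genes tested were positive.

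**Figure D2:**
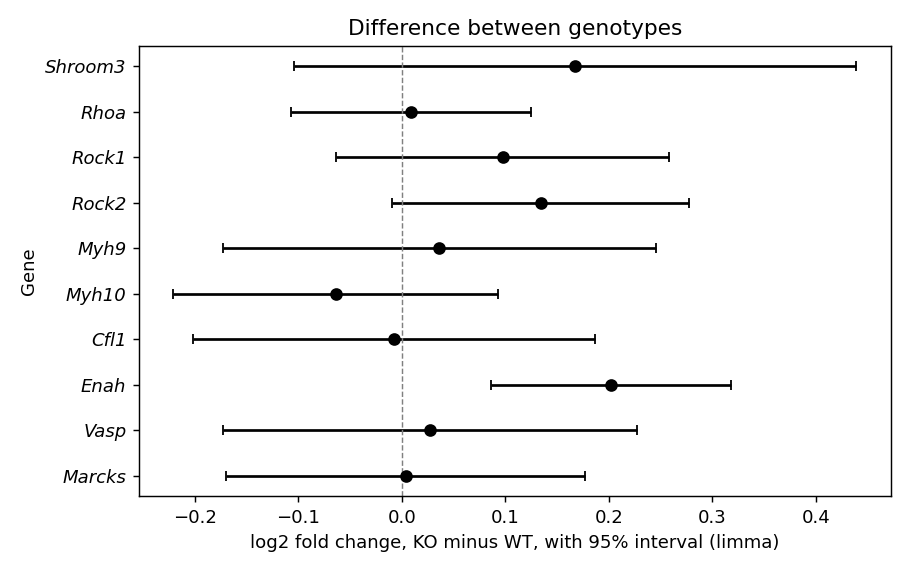
log2 fold change (KO over WT) of the 10 genes, with 95% intervals from limma (3 KO and 4 WT embryos). The interval of Enah, from 0.09 to 0.32, lies above 0 and those of the other 9 genes include 0.

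*Shroom3* lies on chromosome 5 of GRCm38, from 92683435 to 92965318 on the plus strand (GENCODE M21), and encodes the scaffold that places ROCK1 and ROCK2 at apical junctions. Among KO embryos, KOAC8-6 had 9.13, KOAC10-5 had 8.93 and KOAC10-8 had 7.81 FPKM. Among WT embryos, KOAC8-1 had 9.42 FPKM, while KOAC10-7, KOAC9-1 and KOAC10-2 had 7.15, 6.92 and 6.95 FPKM. All 3 KO embryos were above 3 of the 4 WT embryos, and KOAC8-1 was above every KO embryo. KO embryos averaged 8.62 ± 0.708 FPKM (SD, n = 3), 13.3% above the WT average of 7.61 ± 1.21 FPKM (SD, n = 4), with a log2 fold change of 0.17 (95% interval -0.10 to 0.44, adjusted p = 0.600, limma). The exact permutation test over the 35 splits of the embryos gave p = 0.229 (two-sided), and the smallest p that these splits allow is 0.0286.

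The size of the *Shroom3* difference depended on which embryos were included, most of all on the WT embryo KOAC8-1. The log2 fold change was 0.23 without the KO embryo KOAC10-8, and 0.13 to 0.14 when an embryo other than these was left out. Without KOAC8-1 the log2 fold change was 0.26, with an unadjusted p = 0.0145 and an adjusted p = 0.415 (limma), and the groups no longer overlapped. KOAC8-1 was singled out for its high value, so neither this separation nor the lower p is evidence of a difference. Among the embryos whose labels begin with KOAC8, 1 of each genotype, the KO embryo was at 9.13 and the WT embryo at 9.42 FPKM. Among those labelled KOAC10, 2 of each genotype, the KO mean was 8.37 FPKM and the WT mean 7.05 FPKM, without overlap. *Rock2*, *Myh10* and *Enah* did not overlap within KOAC10 either. Groups this small often separate by chance, and the share of all genes without overlap within KOAC10 was not computed. KOAC9 holds a WT embryo only, and the labels do not say what these series stand for. With only the 4 embryos that had liver transcripts, among them KOAC8-1, the log2 fold change of *Shroom3* was 0.06.

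*Rhoa* (chromosome 9, 108306129 to 108337934, plus strand) encodes the GTPase that activates ROCK1 and ROCK2. KO embryos had 155, 151 and 167 FPKM, and WT embryos had 157, 159.8, 158 and 153 FPKM. The KO values bracketed the WT values, and the log2 fold change was 0.01 (95% interval -0.11 to 0.13, adjusted p = 0.960, limma). The sign turned negative when the values were rescaled to a common sum, at -0.0032, so no direction is given for it. The interval covers changes from 7.17% lower to 9.05% higher on this scale. Some stretches of *Rhoa* also occur elsewhere: 7.42% of its 50-base stretches are found in other transcripts, processed pseudogenes included.

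In KO embryos the means of *Rock1* and *Rock2* were above the WT means, by amounts that did not pass the test. *Rock1*, on chromosome 18, had 16, 13.8 and 15.8 FPKM in the KO embryos, beside 14.8, 14.4, 13.8 and 13.5 FPKM in the WT embryos. KOAC8-6 and KOAC10-8 were above every WT embryo, and KOAC10-5 was within the WT range. Its log2 fold change was 0.10 (95% interval -0.06 to 0.26, adjusted p = 0.605, limma; exact permutation test, two-sided, p = 0.171). *Rock2* (chromosome 12, 16894895 to 16987823, plus strand) had 23.2, 20.3 and 21.3 FPKM in the KO embryos, beside 20.6, 19.6, 18.9 and 19.1 FPKM in the WT embryos. Again the same KO pair was above all WT embryos, and KOAC10-5 was below KOAC8-1 alone. The log2 fold change of *Rock2* was 0.13 (95% interval -0.01 to 0.28, adjusted p = 0.462, limma), or 10.3% in the means, and the exact permutation test gave p = 0.0857 (two-sided).

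Of the 10 genes, 4 had a difference of the same sign in both label series, both kinases among them. KOAC8 holds 1 embryo of each genotype, and the *Rock1* values overlapped within KOAC10. The difference for *Rock2* was 0.16 in KOAC8 and 0.10 in KOAC10 on the log2(FPKM + 1) scale, and that for *Rock1* was 0.11 and 0.08. Without the KO embryo KOAC10-5, the log2 fold changes were 0.18 for *Rock2* and 0.16 for *Rock1*, with unadjusted p-values of 0.0341 and 0.0402 and adjusted p-values of 0.271 and 0.282 (limma). Without the KO embryo KOAC8-6 they were 0.08 for *Rock2* and 0.06 for *Rock1*, with unadjusted p-values of 0.222 and 0.460 and adjusted p-values of 0.691 and 0.819 (limma), so the size of both differences depends on which KO embryos are included. Of the summed FPKM of both kinases, *Rock2* held 58.7 ± 1.13% (SD, n = 3) in KO and 58.1 ± 0.429% (SD, n = 4) in WT embryos (exact permutation test, two-sided, p = 0.343), a difference of 0.610 points that ran from 0.197 points without KOAC10-5 to 1.25 points without KOAC10-8.

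**Figure D3:**
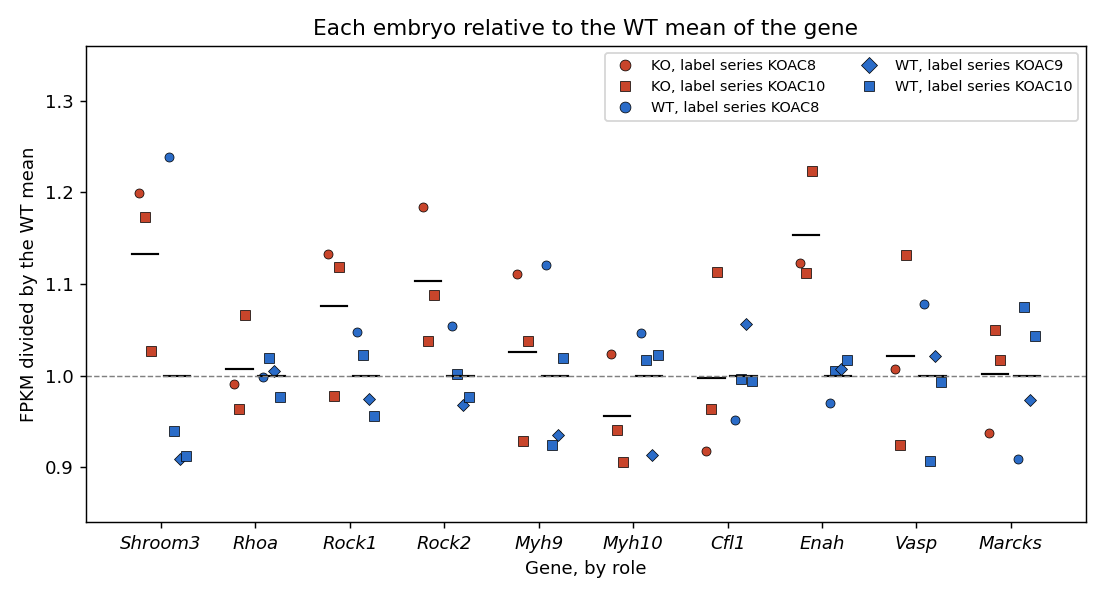
FPKM of each embryo divided by the WT mean of the gene, with KO embryos in red, WT embryos in blue, black lines at the group means and the shape giving the series in the embryo label. The KO and WT points separate for Enah alone, and for Shroom3 the WT embryo KOAC8-1 lies above every KO embryo.

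*Myh9* and *Myh10* encode the heavy chains of non-muscle myosin IIA and IIB, the motors that pull on the apical actin belt. *Myh9* (chromosome 15, 77760587 to 77842175, minus strand) had 45.4, 37.9 and 42.4 FPKM in the KO embryos, beside 45.7, 37.8, 38.2 and 41.6 FPKM in the WT embryos. The genotypes covered nearly the same range, with a log2 fold change of 0.04 (95% interval -0.17 to 0.25, adjusted p = 0.905, limma). *Myh10* (chromosome 11, 68691559 to 68816632, plus strand) had 107, 98.6 and 94.96 FPKM in the KO embryos, beside 109.8, 107, 95.9 and 107 FPKM in the WT embryos. The log2 fold change of *Myh10* was -0.06 (95% interval -0.22 to 0.09, adjusted p = 0.730, limma), and the ranges overlapped. It was -0.11 without KOAC8-6, -0.11 without KOAC9-1, -0.04 without KOAC8-1 and -0.03 without KOAC10-8. KOAC8-6 and KOAC8-1, the 2 embryos labelled KOAC8, had the highest *Myh9* of their genotypes and the highest *Myh10* of their genotypes.

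Myosin IIB was the main form at the transcript level. *Myh10* held 69.7 ± 1.56% (SD, n = 3) of the summed FPKM of *Myh9*, *Myh10* and *Myh14* in KO and 71.2 ± 1.5% (SD, n = 4) in WT embryos (exact permutation test, two-sided, p = 0.229), a difference of -1.48 points that ran from -2.30 points without KOAC10-5 to -0.744 points without KOAC10-8. *Myh14*, the heavy chain of myosin IIC, was between 1.33 and 2.18 FPKM.

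The RefSeq table of GRCm38.p6 held promoters of 8 of the 10 genes, from 250 bases before to 50 after each start, and *Myh10* was the only 1 of these 8 genes with the letters CATTCC on either strand. These letters are the core bound by TEAD factors, through which the Hippo kinases reach the genome. Earlier work had linked SLMAP3 to opposing these kinases, and for this reason the stretch is shown. The authors found no effect of SLMAP3 loss on Hippo signaling in these mice. It lies at chr11:68691896-68691925, on the plus strand, with the motif in capitals starting 7 bases before the RefSeq start site.

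Myh10 promoter: gccaatgagcatCATTCCaggtgggtggag

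Of all 32851 promoters in that table, 14.7% held CATTCC on either strand, so 1 among 8 genes is near the general share. The CArG box of serum response factor, which drives many actin genes, was searched on both strands as well and was found in the promoters of 0 of these 8 genes and in 1.63% of all promoters. These matches describe the letters only, and no binding was measured.

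*Cfl1* encodes cofilin-1, which severs and depolymerizes actin filaments. It lies on chromosome 19 from 5490455 to 5495201 on the plus strand. KO embryos had 793, 833 and 962 FPKM, WT embryos had 823, 862, 914 and 860.2 FPKM, and the KO embryos included both the lowest and the highest of the 7 values. The log2 fold change was -0.01 (95% interval -0.20 to 0.19, adjusted p = 0.982, limma). *Cfl1* made up 79.0 ± 0.352% (SD, n = 3) of the summed FPKM of the ADF/cofilin family in KO and 79.1 ± 0.4002% (SD, n = 4) in WT embryos, beside destrin (*Dstn*, 130.3 to 151 FPKM) and *Cfl2* (81.1 to 98.6 FPKM). Of the 7 families examined, this share had the smallest SD in either genotype. The exons of *Cfl1* overlap those of *Snx32* on the opposite strand over 16.5% of their bases, and *Snx32* was at a mean of 9.103 FPKM. The libraries do not mark strand, so reads from that overlap cannot be told apart. In all, 18.3% of the 50-base stretches of *Cfl1* also occur in other transcripts.

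*Enah* encodes ENAH, also called Mena, which binds the growing ends of actin filaments and keeps them elongating. The gene lies on chromosome 1 from 181896384 to 182019990 on the minus strand. The KO embryos KOAC8-6, KOAC10-5 and KOAC10-8 had 105, 104 and 115 FPKM, and the WT embryos KOAC8-1, KOAC10-7, KOAC9-1 and KOAC10-2 had 90.8, 94.1, 94.3 and 95.2 FPKM. Every KO embryo was above every WT embryo, and the WT embryos lay within 5 FPKM of each other. KO embryos averaged 108 ± 5.73 FPKM (SD, n = 3), 15.3% above the 93.6 ± 1.93 FPKM (SD, n = 4) of WT embryos. The log2 fold change was 0.20 (standard error 0.05, 95% interval 0.09 to 0.32), with an unadjusted p = 0.00433, which was number 237 among the 16095 genes, and an adjusted p = 0.286 (limma). The exact permutation test gave p = 0.0286 (two-sided), the smallest that 3 embryos against 4 allow.

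The difference in *Enah* had the same size in both label series, 0.21 in KOAC8 (105 against 90.8 FPKM) and 0.20 in KOAC10 (means of 109 against 94.7 FPKM). It was 0.24 in the 4 embryos with liver transcripts and 0.20 with *Afp*, a liver gene, as a covariate. Leaving out each embryo in turn gave 0.16 to 0.23, the lowest without KOAC10-8. Under the 21 alternatives run, *Enah* stayed higher in KO embryos, and its adjusted p stayed between 0.185 and 0.552 (limma).

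The other filament elongators showed no separation of the genotypes. *Vasp* (chromosome 7, 19256929 to 19271817, minus strand) had 46.2, 42.4 and 51.9 FPKM in the KO embryos, beside 49.5, 41.6, 46.9 and 45.6 FPKM in the WT embryos. These ranges overlapped almost completely, and the log2 fold change was 0.03 (95% interval -0.17 to 0.23, adjusted p = 0.926, limma). *Evl*, the family's remaining gene and its most abundant transcript, was between 147 and 175 FPKM in KO and between 147 and 171 FPKM in WT embryos, with a log2 fold change of 0.03. The share of *Enah* in the summed FPKM of the 3 genes was 35.2%, 34.4% and 33.5% in KO and 31.7%, 32.5%, 30.2% and 32.2% in WT embryos. No values overlapped, and the means were 34.4 ± 0.845% (SD, n = 3) and 31.6 ± 1.04% (SD, n = 4), a difference of 2.74 points (exact permutation test, two-sided, p = 0.0286, and p = 0.2 when adjusted over the 7 families). A share is unaffected by a common scaling of a library, but this one is built from the same *Enah* values and is not independent of them.

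Markers of several tissues also had unequal means in the genotypes, and their part in the result for *Enah* was not tested. Of 7 neural progenitor markers, 6 had an unadjusted p under 0.05 and all 6 were higher in KO embryos, beside 11.5% of all genes tested at that threshold. The median log2 fold change of the 7 was 0.44. The 7 markers summed to 661 to 740.3 FPKM in KO and 598 to 683 FPKM in WT embryos, and these sums overlapped. *Fabp7*, with a log2 fold change of -0.02, was 47.6% to 62.6% of this sum. Only without *Fabp7*, set aside after its values were seen, did the sums not overlap, at 315 to 388 FPKM in KO and 241 to 307 FPKM in WT embryos. Among all genes tested, 11.6% had values without overlap. For 5 heart markers the median log2 fold change was 0.26, with sums of 381 to 499.5 FPKM in KO and 334 to 405 FPKM in WT embryos. For 4 endothelial markers, of which 1 had a negative fold change, it was 0.12. Their sums of 61.1 to 62.7 FPKM in KO and 55.9 to 60.6 FPKM in WT embryos did not overlap, by a narrow margin. None of the markers had an adjusted p under 0.05, and none of these lists had a marker at 0 in any embryo.

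*Marcks* (chromosome 10, 37133375 to 37138920, minus strand) encodes a protein kinase C substrate that links actin to the plasma membrane. KO embryos had 201, 225 and 218 FPKM, and WT embryos had 194.7, 230.3, 209 and 224 FPKM. The KO values lay inside the WT range, and the log2 fold change was 0.00 (95% interval -0.17 to 0.18, adjusted p = 0.987, limma). Its sign turned negative with a common sum (-0.0083) and with quantile normalization (-0.02), so no direction is given. The relative *Marcksl1* was more abundant at 534 to 711 FPKM, and *Marcks* held 25.8 ± 2.22% (SD, n = 3) of their sum in KO and 26.1 ± 1.47% (SD, n = 4) in WT embryos.

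The Shroom family was also examined as shares. *Shroom3* held 40.9%, 39.9% and 40.8% of the family's summed FPKM in KO embryos. In WT embryos it held 40.8% in KOAC8-1 and 33.1%, 32.9% and 33.7% in KOAC10-7, KOAC9-1 and KOAC10-2. The 3 KO embryos were within 1 point of each other and of KOAC8-1, and the other 3 WT embryos formed a separate group about 7 points lower. The difference of the means, 40.5 ± 0.538% (SD, n = 3) against 35.1 ± 3.80% (SD, n = 4), was 5.40 points (exact permutation test, two-sided, p = 0.0857, and p = 0.3 when adjusted over the 7 families). Without KOAC8-1 it was 7.30 points, where an exact test of 3 embryos against 3 cannot give a p below 0.1.

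*Shroom2*, which also binds these kinases and acts in epithelia and pigment cells, is a large part of the remainder. KO embryos had 6.03, 6.27 and 5.42 FPKM, WT embryos had 6.21, 7.43, 6.98 and 7.02 FPKM, with a log2 fold change of -0.20 (unadjusted p = 0.0427, adjusted p = 0.421, limma). KOAC8-1 was again the WT embryo within the KO range, and the other 3 WT embryos were above it. *Shroom4* (4.65 to 5.64 FPKM) and *Shroom1* (1.25 to 1.85 FPKM) had log2 fold changes of -0.04 and -0.08. A limit on *Shroom3* is that 24.9% of its exonic bases overlap the lincRNA *4932430I15Rik* on the opposite strand, which was at a mean of 0.0448 FPKM.

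**Figure D4:**
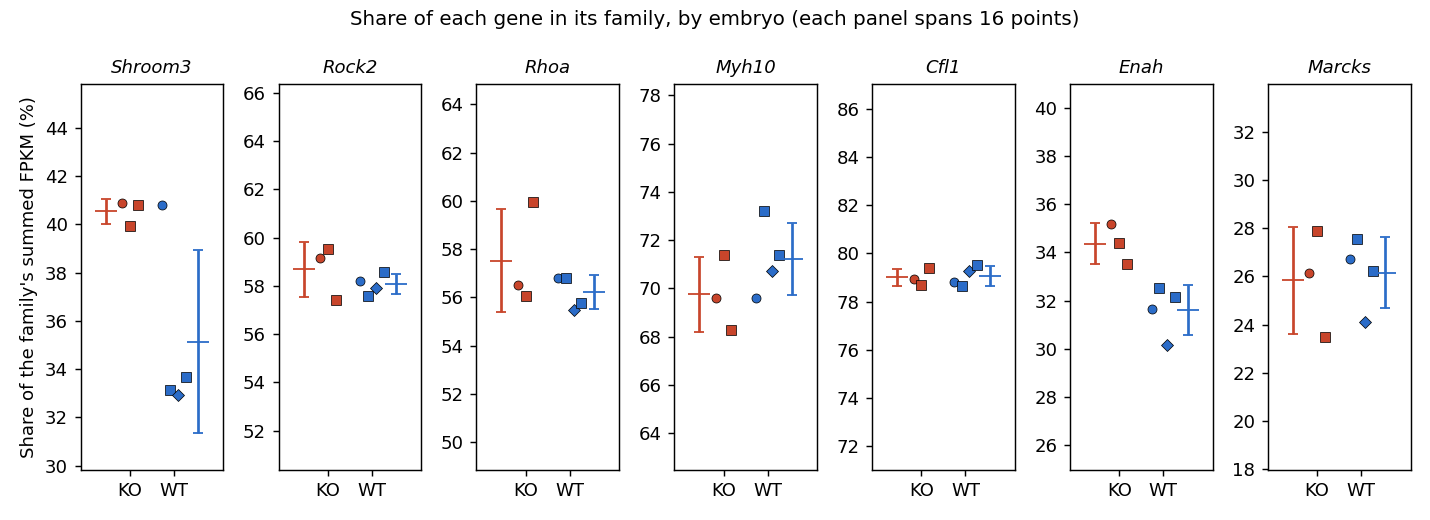
Share of each gene in the summed FPKM of its family, by embryo, with the mean and SD of each genotype beside the points (red, 3 KO, blue, 4 WT, shapes as the label series) and every panel spanning the same number of percentage points. Enah separates the genotypes at 34.4% against 31.6%, and for Shroom3 the WT embryo KOAC8-1 sits at 40.8% with the KO embryos.

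The likeness of patterns across embryos was measured as the Euclidean distance between row z-scores of log2(FPKM + 1), for which 4.90 is the farthest possible. *Rock1* and *Rock2* were nearest to each other among the 10 genes, at 1.15. Of the other 9 genes, the nearest to *Shroom3* was *Rock2*, at 1.81. Among all genes tested, those nearest to *Shroom3* were *Swt1* at 0.40, *Gm37850* at 0.55 and *Dbndd2* at 0.55, each with its highest value in KOAC8-1. These distances rest on 7 embryos and were picked from 16095 genes, and thus describe the pattern only.

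Other genes of the same machinery were examined in 8 lists with 84 genes, all of which were tested. With limma, 0 of the 84 passed an adjusted p of 0.05, the smallest being 0.274. At an unadjusted p under 0.05 there were 11 genes, or 13.1%, beside the 11.5% of all genes tested, 4 higher and 7 lower in KO embryos, a share near that of all genes. The log2 fold change was positive for 29 genes and negative for 55, with a median of -0.03.

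In the list of 14 myosin II subunits and regulators of the light chain, 2 genes were higher and 2 lower at an unadjusted p under 0.05. The share of all genes tested at that threshold was 11.5%. *Cit*, a kinase of the cytokinetic ring that acts downstream of RHOA, had 16.4, 16.6 and 16.4 FPKM in the KO embryos, beside 14.2, 12.4, 13.0 and 13.5 FPKM in the WT embryos, with a log2 fold change of 0.29 (unadjusted p = 0.00143, adjusted p = 0.274, limma). *Myl9*, a regulatory light chain that is abundant in smooth muscle, had 69.7, 72.4 and 85.5 FPKM in the KO embryos, beside 97.1, 83.7, 126 and 90.6 FPKM in the WT embryos, with a log2 fold change of -0.37 (unadjusted p = 0.0357, adjusted p = 0.406, limma). The essential light chain *Myl6*, named after its values were seen, was between 585 and 628 FPKM in KO and between 653 and 704 FPKM in WT embryos, with a log2 fold change of -0.17. *Ppp1r12a*, likewise named after its values were seen, averaged 47.4 ± 3.72 FPKM (SD) in KO and 40.4 ± 3.08 FPKM (SD) in WT embryos. Its log2 fold change was 0.23 (unadjusted p = 0.0231, adjusted p = 0.373, limma). KO and WT values of *Myl6* and of *Cit* did not overlap, and those of *Ppp1r12a*, *Myl9*, *Myh9* and *Myh10* did. Values without overlap were found for 11.6% of all genes tested.

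*Rhoa* held 57.5 ± 2.14% (SD, n = 3) of the summed FPKM of *Rhoa*, *Rhob* and *Rhoc* in KO and 56.2 ± 0.702% (SD, n = 4) in WT embryos (exact permutation test, two-sided, p = 0.314). The difference of 1.30 points was 0.0766 points without the KO embryo KOAC10-8 and 2.03 points without KOAC10-5, so its size rests on KOAC10-8.

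Around cofilin, 12 genes ranged from -0.16 for the LIM kinase *Limk1* to 0.04 for the cofilin phosphatase *Pdxp*. Of the 12, 0 had an unadjusted p under 0.05 (limma), beside 11.5% of all genes tested. The 9 genes of the Ena/VASP, MARCKS and actin monomer list ranged from -0.15 for the profilin *Pfn2* to 0.03 for *Marcksl1*, also with 0 at an unadjusted p under 0.05. The 6 formins ranged from -0.29 for *Diaph1* to 0.07 for *Diaph2*, again with 0. *Diaph1*, a RHOA target that nucleates actin, was spread between 11.2 and 20.4 FPKM in WT embryos, so its interval of -0.71 to 0.13 is wide. Among 5 further cytoskeletal genes of neural tube closure, *Luzp1* had the largest log2 fold change at 0.17 (adjusted p = 0.436) and *Palld* the smallest at -0.11 (adjusted p = 0.537).

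In the list of actin, Arp2/3 and crosslinking genes, 1 of 22 was higher and 4 were lower at an unadjusted p under 0.05. Of all genes tested, 11.5% passed that threshold in either direction. *Tpm2*, a tropomyosin of muscle and fibroblasts, had 62.0, 59.3 and 49.0 FPKM in the KO embryos, beside 88.7, 82.0, 115 and 72.3 FPKM in the WT embryos, with a log2 fold change of -0.63 (unadjusted p = 0.0053, adjusted p = 0.289, limma). *Tpm1*, another tropomyosin, named after its values were seen, had 311, 299 and 293 FPKM in the KO embryos, beside 401, 373, 353 and 363 FPKM in the WT embryos, with a log2 fold change of -0.30 (adjusted p = 0.274). *Msn*, the membrane linker moesin, was at the other end with 0.16 (adjusted p = 0.414). The cytoplasmic actins *Actb* and *Actg1*, likewise named after their values were seen, had log2 fold changes of -0.05 and -0.01.

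Muscle markers had the same sign as *Tpm1*, *Tpm2* and *Myl9*. Each of 7 markers of skeletal muscle had a lower KO mean at an unadjusted p under 0.05, beside 11.5% of all genes tested in either direction. Their median log2 fold change was -1.01, with sums of 47.0 to 96.7 FPKM in KO and 152 to 243 FPKM in WT embryos. The 4 smooth muscle markers, of which 3 were tested, summed to 53.3 to 76.8 FPKM in KO and 93.0 to 121 FPKM in WT embryos, with a median of -0.52. None of these markers was called or at 0 in any embryo, and their part in the differences of the tropomyosins and of *Myl9* was not tested. The remaining lists were neurons (median log2 fold change -0.09), mesenchyme (-0.18), epithelium (0.10), erythroid cells (-0.30), macrophages (-0.12) and fetal liver (0.34), where the spread among embryos with and without liver transcripts far exceeds that between genotypes.

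**Figure D5:**
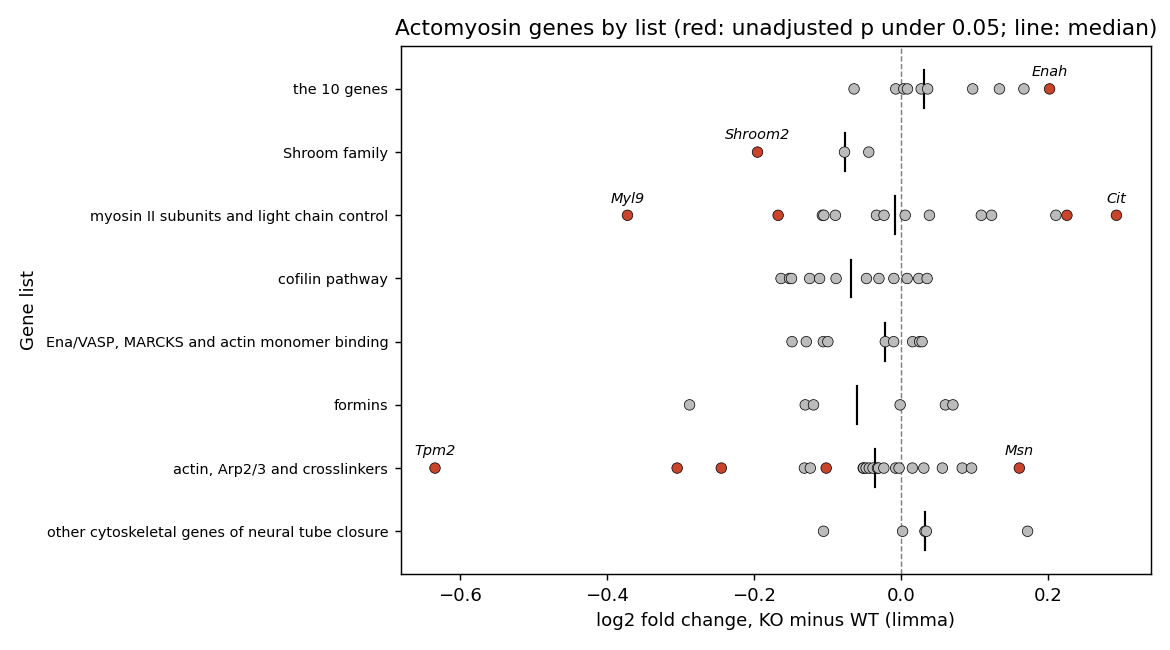
log2 fold change (KO over WT) of the 10 genes and of other actomyosin genes in 7 of the 8 lists, 1 point per gene, red at an unadjusted p under 0.05 in limma, with a black line at the median of each list. Most points lie close to 0, Enah is the only red point among the 10 genes, and Tpm2 is the farthest from 0 at -0.63.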

How the data were processed

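RNA-seq of 3 KO and 4 WT embryos was analysed, from TruSeq RNA v2 libraries, which do not mark strand. The FPKM values were computed and deposited by the authors. The submitters' processing notes name Salmon, DESeq2, MultiQC and GRCm38. The authors also deposited a mean signal per gene (counts divided by size factors, averaged over embryos), printed here as the mean normalized count, and a fold change, standard error and p-values of their own comparison, which were not used. These mean signals sum to 66829032, and FPKM sums ran from 770063 to 861448 per embryo. Reads per embryo were not used here. All 7 FPKM columns were assigned to an embryo by its label, with 0 left over.

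Values were taken as log2(FPKM + 1), which understates changes of low genes, and genes whose mean reached 1 FPKM entered a limma fit without covariates (version 3.58.1 under R 4.3.3, with eBayes allowing the variance to follow the mean), adjusted by Benjamini-Hochberg over every gene in it, at a threshold of 0.05. The steps were tested on simulated data. The changes simulated for the limma fit were larger than any fitted for the 10 genes, so recovery of changes that small was not tested. Single values and family shares were compared by exact permutation over the 35 splits of the embryos. The genes named are the 10 genes, *Slmap*, their paralogs, the largest and smallest fold change of each list and the 3 patterns nearest to *Shroom3*, apart from those said to be chosen later. The 10 genes and all lists were chosen with earlier results of these data known. The values of 1 of the 8 lists, which enters the totals, are not reported here. Positions are from GENCODE M21, which holds 25447 of the 25461 identifiers.

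Also tried were a pseudocount of 0.1 or 0.01, no filter, a minimum mean of 5 FPKM, a common sum, median-ratio factors, quantile normalization, the label series as a block, *Xist* or *Afp* as a covariate, robust eBayes, embryo weights, values summed per symbol, leaving out each embryo and, chosen after seeing the data, only the 4 embryos with liver transcripts.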

Additional observations from a re-analysis of the deposited data

Results flagged for a closer look

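Among 28 sets of 4 WT values examined for the 10 genes, their paralogs, *Slmap* and the family shares, 2 had 1 embryo far from the other 3, where chance gives about 1 in 20. For *Shroom3* the gap between the WT embryo KOAC8-1, at 9.42 FPKM, and the next WT embryo, at 7.15 FPKM, was 0.905 of the range of the WT embryos. For the share of *Shroom3* in the Shroom family it was also 0.905, with KOAC8-1 at 40.8% and the next at 33.7%. Both concern the same gene and the same embryo, so they are not independent of each other.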

How the results depend on the processing

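Of the 10 genes and of the 84 other genes, 0 passed an adjusted p of 0.05 in limma in any of the 21 alternatives. The number of family shares called was 0 under each of the 12 alternatives that apply to them. With fewer than 7 embryos the exact permutation test cannot give a p below 0.0667, so the 0 was fixed in advance there. With all 7 embryos, a family that separates alone cannot have an adjusted p below 0.2, so these counts do not measure stability. *Enah*, *Rock1*, *Rock2*, *Shroom3* and *Myh10* kept their sign under every alternative, and *Enah* had an unadjusted p under 0.05 in all 21 (0.0020 to 0.0387, limma). *Slmap* ran from -0.71 to -0.50. The number of all genes called was 10 with *Afp* as a covariate, 17 with only the embryos that had liver transcripts, and 7 to 12 with an embryo left out, the highest without KOAC8-1. Of the 10 genes, 2 had an unadjusted p under 0.05 with embryo weights (*Rock2* and *Enah*) and 1 to 3 with an embryo left out. Without KOAC10-5 these were *Rock1*, *Rock2* and *Enah*, and without KOAC8-1 they were *Shroom3* and *Enah*. The number without overlap was 3 with only the embryos that had liver transcripts (*Rock1*, *Rock2* and *Enah*). It was 1 to 3 with an embryo left out. Those without overlap were *Shroom3*, *Rock2* and *Enah* without KOAC8-1, and *Rock1*, *Rock2* and *Enah* without KOAC10-5. Groups of fewer embryos separate more often by chance, and the share of all genes without overlap was not computed for these settings. The 11.6% of all genes tested belongs to all 7 embryos, so whether these counts exceed the general share was not tested. The median log2 fold change ran from 0.0089 to 0.10 with an embryo left out, the highest without KOAC10-5. The causes were not tested.

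Signs turned only where the reported difference was near 0. *Cfl1* was 0.0198 with the label series as a block, 0.0107 with only the embryos that had liver transcripts, and -0.0881 to 0.0509 with an embryo left out. *Marcks* was -0.0083 with a common sum and with the block, -0.0153 with quantile normalization, -0.0416 with embryo weights, and -0.0411 to 0.0505 with an embryo left out. *Rhoa* was -0.0032 with a common sum, -0.0039 with quantile normalization, -0.0035 with weights, and -0.0328 to 0.0394 with an embryo left out. *Vasp* was -0.0092 with *Afp* as a covariate and -0.0475 to 0.10 with an embryo left out, and *Myh9* -0.0221 to 0.10. The share of *Cfl1* differed by 0.127 points with only the embryos that had liver transcripts and by -0.250 to 0.0970 points with an embryo left out, and that of *Marcks* by 0.0325 points with quantile normalization and by -1.33 to 0.866 points. The labels give no replicate numbers, and the label series, which 6 of the 7 embryos share across genotypes, served as the block, under which no call of the 10 genes changed.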
